A study of Mus musculus with 10 samples.

Results

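The genes encoding the E2F transcription factors and their DP dimer partners were followed in sorted cells of the embryonic mouse dorsal brain. The set consisted of E2f1 to E2f8, Tfdp1 and Tfdp2, chosen by gene name, and all 10 were found among the 53801 genes of the deposited table. Bulk RNA sequencing had been performed on 5 libraries from GFAP+ cells and 5 libraries from NG2+ cells. All of the mice were labelled WT, with no strain given, and had received in utero electroporation with StarTrack, a mixture of reporter plasmids that marks electroporated progenitors and their progeny. The progenitors were targeted at embryonic day 12, and the cells were dissociated and sorted by flow cytometry at embryonic day 14. The labels put every library in batch 1 and call the cells of both groups neural stem cells. They do not say whether NG2 and GFAP were detected by antibody or by a promoter in the plasmids, nor whether the libraries of a group came from separate embryos, so p-values measure only the spread between these libraries, which may be technical. Both groups are mixtures in which fewer cells of a type and less RNA per cell cannot be told apart.

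E2F proteins bind DNA as dimers with a DP protein at the promoters of genes needed for DNA replication. In cells at rest the retinoblastoma family of pocket proteins holds them in a repressive state, and phosphorylation of the pocket proteins by cyclin-dependent kinases frees E2F1, E2F2 and E2F3 to activate transcription as cells enter S phase. E2F4 and E2F5 act mainly as repressors with the pocket proteins p107 and p130, E2F6 represses without them through Polycomb complexes, and E2F7 and E2F8 repress without a DP partner. In the embryonic cortex the family is known for its part in the division of neural progenitors, and several E2f genes are themselves E2F targets.

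Library totals ran from 12945436 to 17569730 counted reads. NG2 replicate 5 stood apart in the whole transcriptome, with 18903 genes that had a read against 22988 to 24444 in the other 9 libraries, and correlations of log2 CPM (reads per gene after scaling for library depth) of 0.920 to 0.929 with them. Cspg4, which encodes NG2, lay at 0.691 to 1.54 CPM in the GFAP libraries and at 4.45 to 8.13 CPM in the NG2 libraries, and the groups did not overlap. Gfap had 0 to 7 reads in a GFAP library and 0 to 5 reads in an NG2 library, so transcripts of the gene that names the GFAP population were close to absent. Radial glial markers (10 genes) summed to 1586 to 2197 CPM in GFAP and 1017 to 1801 CPM in NG2 libraries. Neuronal markers (8 genes) summed to 3930 to 5153 CPM and 4876 to 6811 CPM. Intermediate progenitor markers (6 genes) summed to 1729 to 2140 CPM in GFAP and 1487 to 1681 CPM in NG2 libraries, which did not overlap. Markers of other cells summed to 62.4 to 201 CPM for ventral GABAergic cells, 1.04 to 12.6 CPM for oligodendrocyte precursors, 17.6 to 235 CPM for microglia, 0.113 to 20.1 CPM for endothelial cells, 3.14 to 20.2 CPM for meningeal fibroblasts and 193 to 471 CPM for erythroid cells, and none of these markers was at 0 in all 10 libraries. The cells labelled neural stem cells thus came with transcripts of neurons in all 10 libraries.

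Because E2F genes can be targets of E2F proteins, the sequence before their own start sites was examined first. RefSeq windows on GRCm38.p6, which run from 250 bases before to 50 bases after an annotated start, were available for 8 of the 10 genes. E2f4 and E2f5 were not among them. An E2F motif was counted where any of TTTCCCGC, TTTCGCGC, TTTGCCGC or TTTGGCGC stood on either strand. Such a match was present in the windows of 4 of the 8 genes, E2f2, E2f3, E2f7 and Tfdp1, against 704 of 27025 genes with a window (2.60%), or 744 of all 32851 windows (2.26%). A 6-base element of late cell cycle promoters, TTTGAA on either strand, was present in the windows of 3 of the 8 genes, against 20.2% of genes with a window (17.9% of all windows). For E2f2 it stood only in a further window inside the gene, at a RefSeq start of 136180782, where the counted gene starts at 136172394. CCAAT on either strand was present in 4 of the 8, against 41.1% of genes (37.4% of windows). None of these background shares, here or below, was matched for base content. G and C made up 55.2% to 80.8% of the 250 bases before the start in member windows with an E2F match. In the other member windows they made up 37.6% to 78.0%. The printed stretches are those that carry the matches of E2f3, E2f7 and Tfdp1, the window of E2f8 for comparison, and 30 bases of E2f2. They are written 5′ to 3′ on the strand of the gene, with the matches to these motifs in capitals; no capitals of different motifs overlap.
E2f3 promoter: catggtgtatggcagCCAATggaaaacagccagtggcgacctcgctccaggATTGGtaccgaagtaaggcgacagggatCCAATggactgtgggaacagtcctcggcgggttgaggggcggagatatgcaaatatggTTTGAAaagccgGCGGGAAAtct
E2f7 promoter: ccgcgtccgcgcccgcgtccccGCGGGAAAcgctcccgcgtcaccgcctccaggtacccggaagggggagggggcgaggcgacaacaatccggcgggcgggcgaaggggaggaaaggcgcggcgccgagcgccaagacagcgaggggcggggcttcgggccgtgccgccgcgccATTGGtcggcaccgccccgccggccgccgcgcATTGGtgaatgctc
E2f8 promoter: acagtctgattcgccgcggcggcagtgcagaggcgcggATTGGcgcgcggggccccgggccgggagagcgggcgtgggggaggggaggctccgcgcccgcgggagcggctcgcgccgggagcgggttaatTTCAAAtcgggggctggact
Tfdp1 promoter: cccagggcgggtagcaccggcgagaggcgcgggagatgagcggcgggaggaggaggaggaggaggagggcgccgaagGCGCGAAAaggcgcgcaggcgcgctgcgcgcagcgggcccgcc
E2f2 start region: ccgaatttggcggcatatagTTTGGCGCta
The E2f3 stretch is chr13:29986064-29986223 on the minus strand and ends at the base before the start. It carries GCGGGAAA, the reverse complement of TTTCCCGC, from position -11, TTTGAA from -23 and 3 CCAAT matches at -145, -109 and -81. The E2f7 stretch, chr10:110745219-110745438 on the plus strand, holds the same GCGGGAAA farther out, from -198, and CCAAT in the reverse letters ATTGG at -46 and -14. The E2f8 stretch, chr7:48881597-48881746 on the minus strand, holds TTCAAA, the reverse complement of TTTGAA, from -20 and ATTGG from -112, with none of the E2F motifs searched. The Tfdp1 stretch, chr8:13338631-13338750 on the plus strand, holds GCGCGAAA from -43. The E2f2 stretch, chr4:136172293-136172322 on the plus strand, holds TTTGGCGC from position 40 after the RefSeq start, which lies 120 bases before the start of the gene in the counted annotation. The E2f1 window had no E2F motif, but it lay inside the gene and is not printed. All 250 bases before its RefSeq start were annotated exon, 188 of them coding. The Tfdp2 windows also lay inside their gene, from 96258455 on, where the counted gene starts at 96196275. E2f1 and Tfdp2 thus stand among the 8 genes although the sequence before their counted gene start was not searched. A match in these letters is not a binding site, and the absence of one says nothing of a factor.

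Levels of the 10 genes were compared per length as deposited FPKM (fragments per kilobase of gene length, scaled to library depth). Tfdp1, the main DP partner, had the highest mean over the 10 libraries at 49.1 FPKM, 18.4 times that of E2f8, the lowest at 2.67 FPKM. E2f1 followed at 37.3 FPKM and E2f4 at 32.5 FPKM, and these neighbours were not separated, since E2f1 was above E2f4 in 8 of 10 libraries. E2f5 (23.3 FPKM), E2f6 (11.1 FPKM) and Tfdp2 (5.65 FPKM) each stood above the next gene in all 10 libraries. E2f3 (3.75 FPKM), E2f2 (3.56 FPKM) and E2f7 (3.32 FPKM) were not separated from their neighbours, with E2f3 above E2f2 in 7 and E2f2 above E2f7 in 8 libraries, while E2f7 was above E2f8 in all 10. The deposited length is that of all annotated exons together, 14029 bases for Tfdp2 and 1782 for E2f5, so a gene that uses few of its exons is given too low a level.

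**Figure D1:**
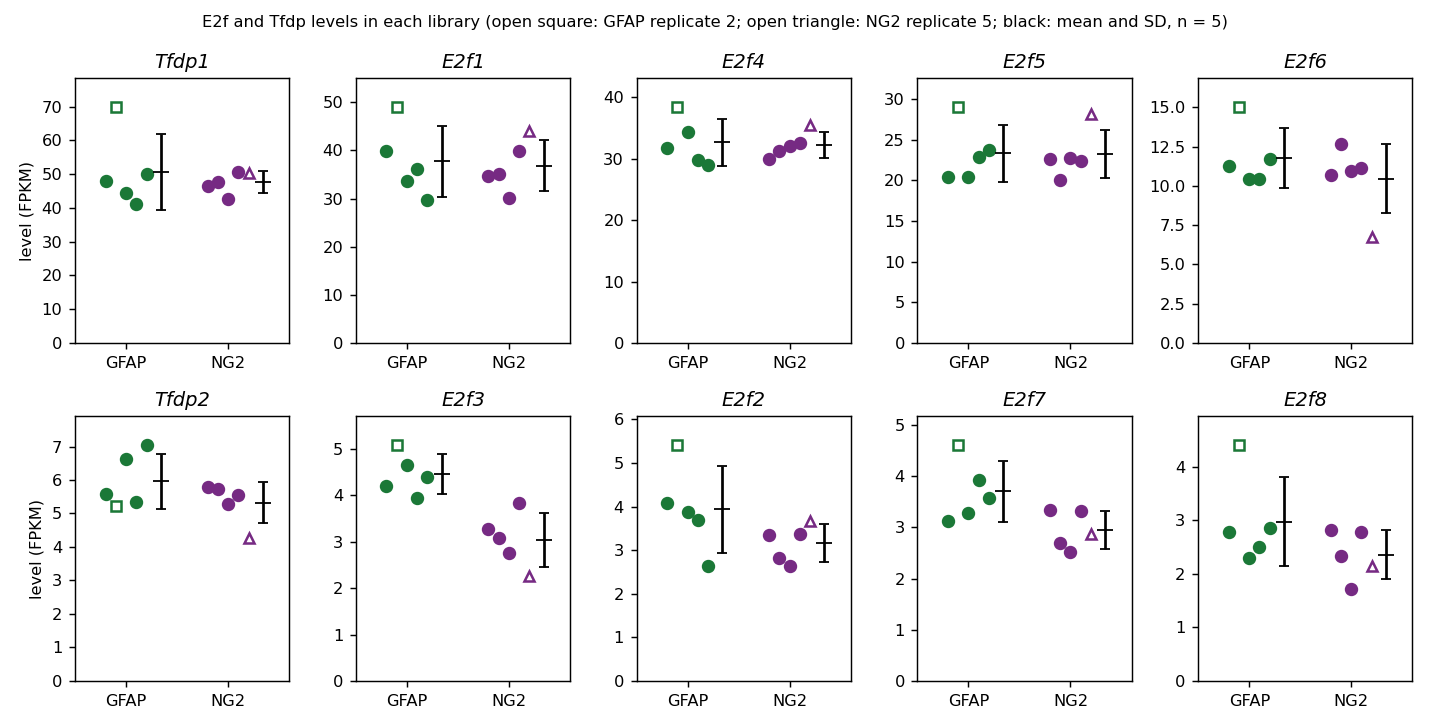
Deposited FPKM of each E2f and Tfdp gene (y axis, linear from 0, 1 panel per gene in order of mean level) in the 5 GFAP (green) and 5 NG2 (purple) libraries, with mean and SD in black. GFAP replicate 2 (open square) is the highest library in 9 panels, NG2 replicate 5 (open triangle) is at 6.77 FPKM in the E2f6 panel, and only the E2f3 panel shows groups that do not overlap.

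Within the activator class, E2f1 supplied most of the transcripts. E2f1 (ENSMUSG00000027490, chr2:154559407-154569892) drives S phase entry and, when unrestrained, apoptosis. It lay at 39.9, 49.1, 33.7, 36.1 and 29.8 FPKM in GFAP replicates 1 to 5 and at 34.7, 35.2, 30.2, 39.8 and 44.1 FPKM in NG2 replicates 1 to 5. The groups overlapped over nearly their whole range, with GFAP replicate 2 and NG2 replicate 5 as the highest library of each. The log2 fold change, NG2 minus GFAP here and throughout, was -0.05 (SE 0.14, 95% interval -0.34 to 0.24). E2f2 (ENSMUSG00000018983, chr4:136172394-136196057), the activator closest to E2f1 in function, was at 4.09, 5.42, 3.87, 3.70 and 2.63 FPKM in GFAP and at 3.34, 2.82, 2.63, 3.38 and 3.66 FPKM in NG2 libraries. GFAP replicates 1 to 4 were above all NG2 libraries, but GFAP replicate 5 was level with the lowest of them. The log2 fold change was -0.33 (SE 0.18, 95% interval -0.71 to 0.05) with all libraries. It was -0.19 (SE 0.16) without GFAP replicate 2 and -0.44 (SE 0.17) without GFAP replicate 5, the ends of its range when 1 library was left out.

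E2f3 was the member whose groups separated. E2f3 (ENSMUSG00000016477, chr13:29906575-29986063) encodes an activator made in a long and a short form, which counts per gene cannot tell apart, and the cortical progenitor pool is known to depend on it. Its level was 4.21, 5.09, 4.66, 3.95 and 4.39 FPKM in GFAP replicates 1 to 5 and 3.28, 3.07, 2.76, 3.83 and 2.26 FPKM in NG2 replicates 1 to 5. All 5 NG2 libraries lay below all 5 GFAP libraries, by a narrow margin between NG2 replicate 4 at 3.83 FPKM and GFAP replicate 4 at 3.95 FPKM; 1.76% of all 16187 tested genes had all NG2 below all GFAP libraries, and 3.28% had no overlap in either direction. The means were 4.46 ± 0.436 FPKM in GFAP and 3.04 ± 0.585 FPKM in NG2 libraries (SD, n = 5 each), and the log2 fold change was -0.57 (SE 0.15, 95% interval -0.88 to -0.25), a 1.48-fold difference. In the edgeR quasi-likelihood test with Benjamini-Hochberg adjustment over all tested genes, the adjusted p was 0.153 (unadjusted p 0.00176, rank 185 of 16187). DESeq2's Wald test on the same counts gave an adjusted p of 0.0232 with a log2 fold change of -0.55. The authors' deposited table gives -0.55 with an adjusted p of 0.0242. Its log2 fold changes match those of DESeq2 closely for all 10 members (E2f3 at -0.55486 in each), so it is not a separate result. The call for E2f3 therefore depended on the test. Its direction was negative in all 21 settings tried, with log2 fold changes of -0.66 to -0.43, and the fit without both GFAP replicate 2 and NG2 replicate 5 gave -0.43 with an edgeR adjusted p of 0.0890. Cell type markers were measured in the same fit. The log2 fold change was negative for 10 of 10 radial glial markers (median -0.28, or -0.16 with 8 of 10 negative without GFAP replicate 2) and for 5 of 6 intermediate progenitor markers (median -0.22). It was positive for 8 of 8 neuronal markers (median 0.30, or 0.23 with 6 of 8 positive without GFAP replicate 2). Over all tested genes 51.5% had a negative log2 fold change. edgeR called 0 of these markers. Its unadjusted p was under 0.05 for 3 radial glial, 3 intermediate progenitor and 4 neuronal markers, against 12.8% of all genes. DESeq2 called Pax6, Eomes and Btg2 lower and Tubb3, Stmn2 and Nefm higher in NG2 libraries, all named after their values were seen. Of the 13006 genes it adjusted, DESeq2 called 134 lower (1.03%) and 212 higher. The part of the cell type markers in the E2f3 difference was not tested.

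The repressors that work with pocket proteins had group means that lay within 1 SD of each other. E2f4 (ENSMUSG00000014859, chr8:105297663-105305370), a repressor in resting cells that also serves multiciliated cell formation, was at 31.8, 38.5, 34.3, 29.9 and 29.0 FPKM in GFAP and 29.9, 31.3, 32.1, 32.5 and 35.5 FPKM in NG2 libraries. It varied least of the 10 genes, with a coefficient of variation of 8.94% over the 10 libraries, and its log2 fold change was -0.03 (SE 0.10, 95% interval -0.24 to 0.18). E2f5 (ENSMUSG00000027552, chr3:14578641-14606309), its close relative, was at 20.5, 29.1, 20.5, 22.9 and 23.8 FPKM in GFAP and 22.7, 20.1, 22.7, 22.4 and 28.1 FPKM in NG2 libraries. GFAP replicate 2 and NG2 replicate 5 stood above the other 8 libraries, and the log2 fold change was -0.02 (SE 0.13, 95% interval -0.29 to 0.25). E2f5 overlaps 1810022K09Rik, a protein-coding gene on the opposite strand with 17197 reads over the 10 libraries against 6397 for E2f5. Since the strand setting of the counting is not given in the sources used here, the E2f5 level is uncertain.

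E2f6 was set apart by 2 libraries in opposite directions. E2f6 (ENSMUSG00000057469, chr12:16810963-16839742), a repressor that lacks the pocket protein binding domain, was at 11.3, 15.0, 10.4, 10.4 and 11.7 FPKM in GFAP and 10.7, 12.7, 10.9, 11.1 and 6.77 FPKM in NG2 libraries. GFAP replicate 2 was the highest and NG2 replicate 5 the lowest, and the other 8 libraries lay between 10.4 and 12.7 FPKM. The log2 fold change was -0.19 (SE 0.15, 95% interval -0.51 to 0.14) with all libraries. It was -0.08 (SE 0.15) without GFAP replicate 2, -0.06 (SE 0.12) without NG2 replicate 5 and 0.04 (SE 0.09) without both. Leaving out the highest GFAP and the lowest NG2 library of a gene must raise this value, so the rise is no result about E2f6.

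The atypical repressors, whose genes are switched on by E2F activators late in G1 and in S phase, were among the members with the lowest level per length. E2f7 (ENSMUSG00000020185, chr10:110745439-110787384) was at 3.12, 4.61, 3.28, 3.92 and 3.57 FPKM in GFAP and 3.34, 2.69, 2.52, 3.32 and 2.86 FPKM in NG2 libraries. Only GFAP replicates 1 and 3 lay within the NG2 range, and the log2 fold change was -0.34 (SE 0.13, 95% interval -0.63 to -0.05), with an edgeR adjusted p of 0.313 (unadjusted p 0.0229). E2f8 (ENSMUSG00000046179, chr7:48866429-48881596) was at 2.79, 4.42, 2.30, 2.51 and 2.87 FPKM in GFAP and 2.83, 2.34, 1.72, 2.78 and 2.14 FPKM in NG2 libraries. GFAP replicate 2 was 1.69 times the mean of the other GFAP libraries, the largest such ratio among the 10 genes. The log2 fold change of E2f8 was -0.35 (SE 0.20, 95% interval -0.77 to 0.07) with all libraries and -0.16 (SE 0.17) without GFAP replicate 2.

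The DP partners differed from each other in how they varied. Tfdp1 (ENSMUSG00000038482, chr8:13338751-13378448), which encodes DP1, was at 48.0, 69.9, 44.5, 41.1 and 50.1 FPKM in GFAP and 46.5, 47.6, 42.7, 50.7 and 50.3 FPKM in NG2 libraries. GFAP replicate 2 was 1.52 times the mean of the other GFAP libraries, which otherwise spanned about the NG2 range, and the log2 fold change was -0.11 (SE 0.13, 95% interval -0.38 to 0.17). Tfdp2 (ENSMUSG00000032411, chr9:96196275-96323646), which encodes the partner DP2, was at 5.57, 5.24, 6.62, 5.35 and 7.05 FPKM in GFAP and 5.79, 5.72, 5.28, 5.56 and 4.28 FPKM in NG2 libraries. It was the 1 member not highest in GFAP replicate 2, where it stood at 0.852 times the mean of the other GFAP libraries. Its log2 fold change was -0.18 (SE 0.11, 95% interval -0.42 to 0.07) with all libraries and -0.11 (SE 0.11) without NG2 replicate 5, its lowest library.

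Over the family, edgeR called 0 of the 10 genes at an adjusted p of 0.05, where it called 24 of the 16187 tested genes (0.148%; 0.0741% lower in NG2). At an unadjusted p under 0.05 it gave 2 of 10, E2f3 and E2f7, both negative, against 12.8% of all genes (6.33% lower in NG2). DESeq2 called 1 of 10, E2f3, against 2.66% of the 13006 genes it adjusted (1.03% lower in NG2). The log2 fold change was negative for 10 of 10, against 51.5% of all tested genes, with a median of -0.18 against -0.01. The shared sign rested partly on 1 library: without GFAP replicate 2 it was negative for 6 of 10 with a median of -0.12, and E2f1, E2f4, E2f5 and Tfdp1 turned positive. Without NG2 replicate 5 it was negative for all 10, and without both libraries for 8. All 10 genes passed the filter on low counts, and E2f8, the least counted, had 2238 reads over the 10 libraries. Apart from the E2f5 neighbour, the genes that overlap E2f3, E2f7, E2f8 or Tfdp2 had 2 to 90 reads over all 10 libraries.

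**Figure D2:**
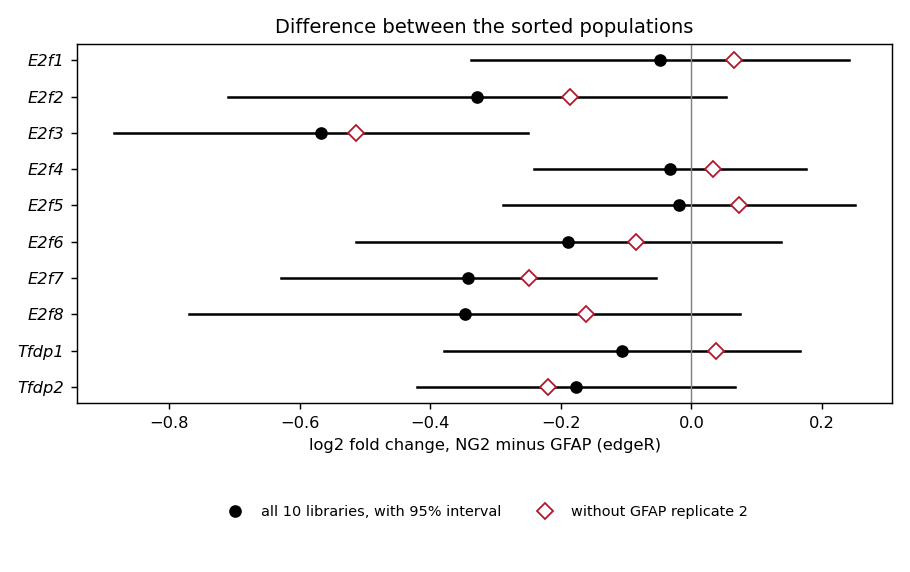
Log2 fold change, NG2 minus GFAP, from edgeR for each gene (x axis), as a black point with its 95% interval for all 10 libraries and as an open diamond without GFAP replicate 2. Only the intervals of E2f3 (-0.88 to -0.25) and E2f7 (-0.63 to -0.05) exclude 0, and 4 diamonds lie above 0.

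The makeup of the family differed little between the groups. Summed over the 8 E2f genes, the level was 121 ± 17.4 FPKM in GFAP and 114 ± 7.96 FPKM in NG2 libraries (SD, n = 5 each). This sum and every share of it include E2f5, whose level is uncertain because of its overlapping gene. The activators E2f1, E2f2 and E2f3 made up 38.1 ± 2.57% of the sum in GFAP and 37.5 ± 2.44% in NG2 libraries, and E2f4 with E2f5 made up 46.6 ± 2.10% and 48.6 ± 2.60%. E2f6 held 9.77 ± 0.694% and 9.26 ± 2.31%, with NG2 replicate 5 at 5.40%. E2f7 with E2f8 held 5.51 ± 0.503% and 4.65 ± 0.691%. Each of these group differences was smaller than the spread within the groups or, for E2f7 with E2f8, left ranges of 4.94% to 5.97% and 3.99% to 5.57% that overlapped. The summed E2f FPKM stood at 2.15 ± 0.212 times the summed Tfdp1 and Tfdp2 FPKM in GFAP and 2.16 ± 0.0913 times in NG2 libraries. Tfdp1 made up 87.0% to 93.0% of the summed DP FPKM. The ratio and this share rest on a Tfdp2 length of 14029 bases, that of all its exons together. In CPM, which is not scaled for length, Tfdp1 averaged 182 and Tfdp2 80.0 over the 10 libraries.

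**Figure D3:**
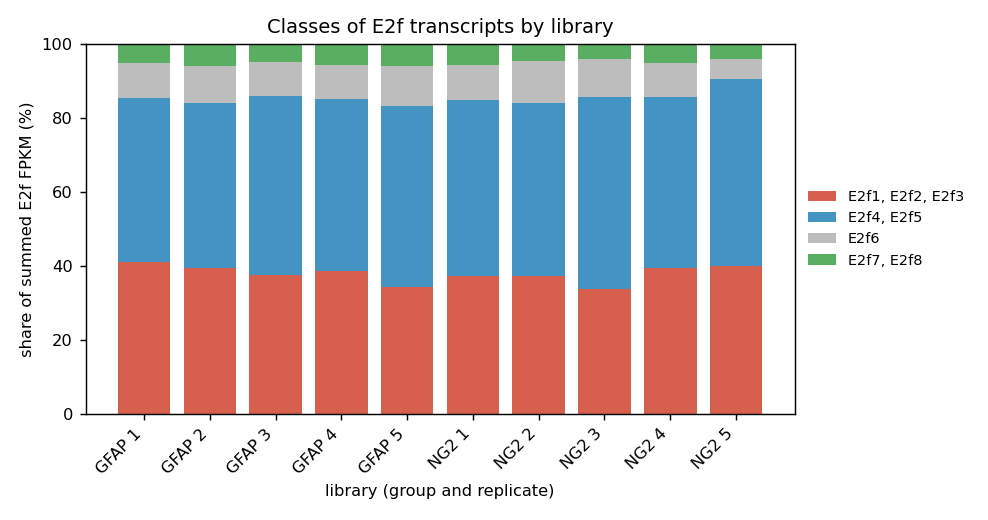
Share of the summed E2f FPKM (y axis, percent) from each functional class, stacked to 100 for each of the 10 libraries (x axis). The sum includes E2f5, whose level is uncertain. The bars vary little among libraries, with activators between 33.7% and 41.0% and a thinner E2f6 band of 5.40% in NG2 replicate 5.

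GFAP replicate 2 set the pattern among libraries. It was the highest of all 10 libraries, in CPM and in FPKM, for 9 of the 10 members, against 14.4% of all tested genes in CPM. Relative to each gene's mean over the libraries, the members' median log2 CPM was 0.47 in GFAP replicate 2 and between -0.03 and 0.08 in the other GFAP libraries. At the other end, NG2 replicate 3 was below the mean for all 10 members, with a median of -0.25. The values there ran from -0.60 (E2f8) to -0.008 (E2f6), with E2f4 at -0.02 and E2f5 at -0.03. The share of all tested genes below their mean in that library was not computed. In FPKM, GFAP replicate 2 exceeded the mean of the other 4 GFAP libraries by between 1.18 times (E2f3) and 1.69 times (E2f8) for those 9 genes. In the raw counts the highest library was NG2 replicate 5, the deepest, for E2f1, E2f4 and E2f5.

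**Figure D4:**
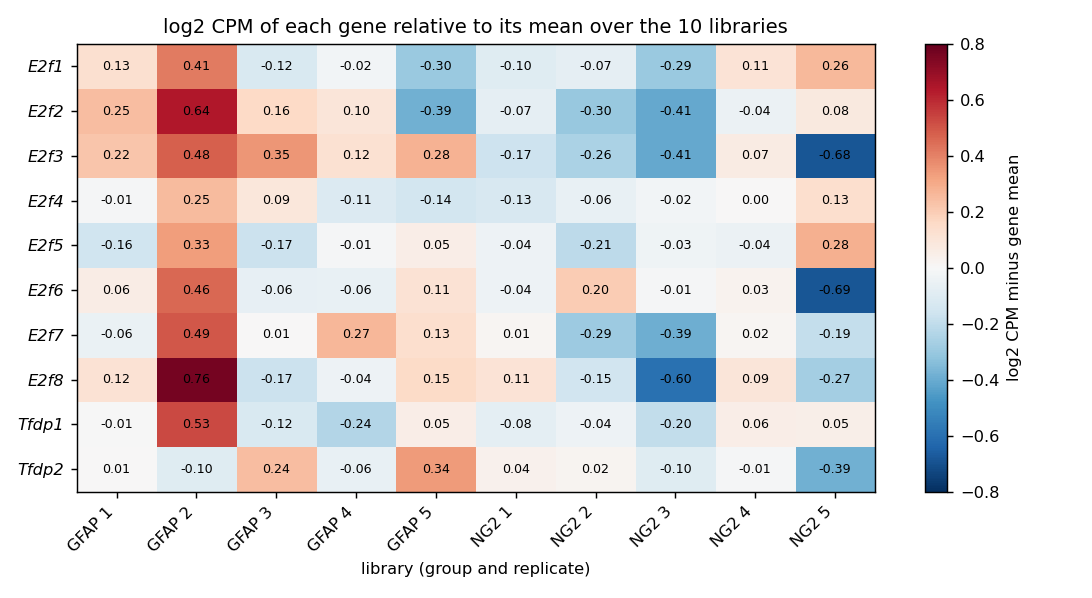
Log2 CPM of each gene (rows) in each library (columns) minus its mean over the 10 libraries, with the value in each cell and color from blue (below) to red (above). The GFAP replicate 2 column is positive in all rows but Tfdp2. The NG2 replicate 3 column is negative in every row, from -0.60 (E2f8) to -0.01 (E2f6), and E2f3, E2f6 and Tfdp2 are lowest in NG2 replicate 5.

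The same 2 libraries stood at the ends for the genes that E2F proteins are known to control. Of 35 G1/S targets, genes for replication origins, nucleotide supply and the G1/S transition, 32 were highest in GFAP replicate 2, with a median relative log2 CPM of 0.78 there, -0.08 to 0.00 in the other GFAP libraries and -0.28 to 0.06 in NG2 libraries. Their summed level was 6792 CPM in GFAP replicate 2, 3733 to 3961 CPM in the other GFAP libraries and 3393 to 4324 CPM in NG2 libraries. Of 19 G2/M genes, which drive mitosis, 17 were highest in GFAP replicate 2, with a median of 0.68 there and -0.33 in NG2 replicate 3. Radial glial markers had a median of 0.57 in GFAP replicate 2, and neuronal markers had -0.45 there and 0.38 in NG2 replicate 3. The part of this difference in progenitor and neuron transcripts in the E2f values was not tested.

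**Figure D5:**
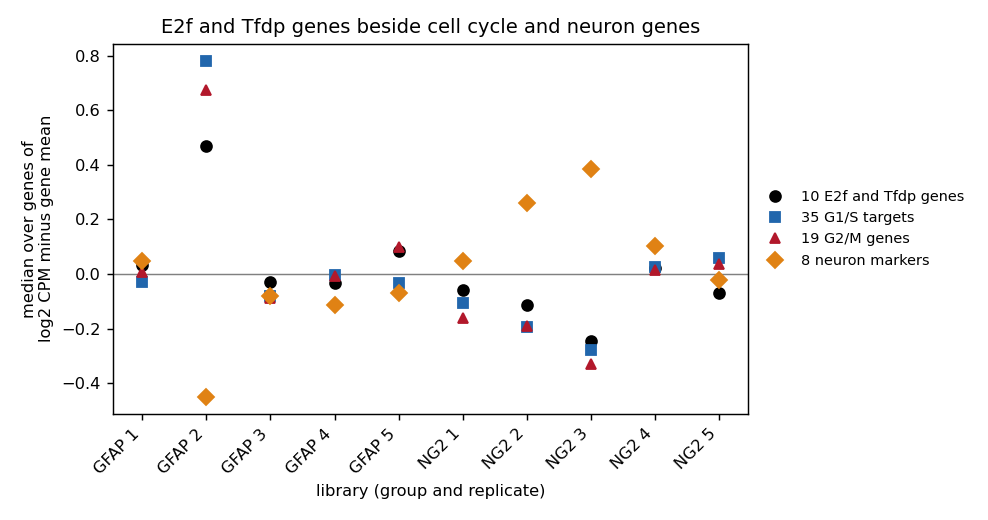
Median over genes of log2 CPM minus the gene's mean over the 10 libraries (y axis) in each library (x axis) for the 10 E2f and Tfdp genes, 35 G1/S targets, 19 G2/M genes and 8 neuron markers. GFAP replicate 2 is high for the first 3 sets (0.47, 0.78 and 0.68) and low for neuron markers (-0.45), and NG2 replicate 3 is the reverse.

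Between the groups, edgeR called 0 of the 35 G1/S targets, with 7 of 35 at an unadjusted p under 0.05, against 12.8% of all genes. DESeq2 called 2 lower in NG2 libraries, against 1.03% of all genes, Mcm10, which loads the replication machinery (log2 fold change -0.68, SE 0.18 in edgeR), and Dtl, a ubiquitin ligase receptor that limits origin licensing (-0.60, SE 0.15), both named after their values were seen. With no filter on low counts, edgeR called Dtl (adjusted p 0.0455). The most abundant targets were Rrm2, a ribonucleotide reductase subunit, at 504 CPM (-0.13, SE 0.18), and Mcm7, part of the replicative helicase, at 389 CPM (-0.18, SE 0.14). The log2 fold change was negative for 35 of 35 targets with a median of -0.23, against 51.5% and -0.01 over all genes. Without GFAP replicate 2 it was negative for 21 of 35 with a median of -0.03, and without both that library and NG2 replicate 5 for 26 with a median of -0.10. An E2F motif was present in the windows of 14 of the 30 targets that had one (46.7%), against 2.60% of all genes, TTTGAA in 3 of 30 (10.0%) and CCAAT in 20 of 30 (66.7%).

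None of the 19 G2/M genes was called by edgeR or DESeq2, and 6 of 19 had an unadjusted p under 0.05 in edgeR, against 12.8% of all genes. Ccnb1, the mitotic cyclin B1, was at 396 CPM (log2 fold change -0.24, SE 0.16) and Ube2c, a ubiquitin-conjugating enzyme of mitotic exit, at 346 CPM (-0.15, SE 0.14). All 19 had a negative log2 fold change (median -0.26), and without GFAP replicate 2 the count was 17 (median -0.08). Their windows held an E2F motif in 1 of 15 genes (6.67%) and TTTGAA in 10 of 15 (66.7%, against 20.2% of all genes) and CCAAT in 13 of 15 (86.7%, against 41.1%).

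Among the regulators of E2F activity no gene was called by either tool. Of the 3 pocket proteins, Rb1 was at 54.3 CPM (log2 fold change 0.04, SE 0.12) and Rbl1, which encodes p107 and is itself an E2F target, at 28.2 CPM (-0.44, SE 0.16, edgeR adjusted p 0.303). The list of 8 genes for the MuvB core, the Myb proteins and Foxm1, which carry the program on into G2, was split into 4 positive and 4 negative (median -0.03), with Rbbp4, a histone-binding subunit, at 0.51 (SE 0.20) and Foxm1, a mitotic activator, at -0.27 (SE 0.19). Of 16 upstream kinases, inhibitors and ubiquitin ligase parts, 13 were tested, with 5 positive and 8 negative (median -0.23, or -0.11 without GFAP replicate 2). Cdk4, the kinase that phosphorylates pocket proteins, was at 1494 CPM (0.01, SE 0.09) and its partner Ccnd2 at 1128 CPM (-0.42, SE 0.18). Cdkn2a, the inhibitor gene of Cdk4, and Skp2, a ubiquitin ligase receptor for E2F1, had 0 reads in all 10 libraries. Skp2 is usually transcribed in dividing cells, and a loss of its reads in the authors' alignment or counting was not tested, so its 0 is no measure of absence.

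Genes tied to single members gave no calls with either tool. Of 8 apoptotic targets of E2f1, 5 were positive and 3 negative (median 0.07), among them Trp53inp1, a p53-induced gene, at 88.5 CPM (log2 fold change -0.07, SE 0.20). The 10 partners of E2f6 in its Polycomb complex were split 5 and 5 (median 0.02), with the ubiquitin ligase Rnf2 at 134 CPM (0.11, SE 0.12) and the chromatin reader Cbx3 at 126 CPM (-0.18, SE 0.11). Of 8 germline genes that E2f6 is known to silence, only Stag3, a meiotic cohesin gene, passed the filter, at 2.87 CPM, and its log2 fold change of 0.30 (SE 0.43) became -0.23 without NG2 replicate 5. The germline list summed to 1.91 to 7.04 CPM in a library, and Tuba3b and Mael had 0 reads in all 10. Of 8 multiciliation genes that work with E2f4 and E2f5, 2 passed the filter, Myb at 6.00 CPM (-0.45, SE 0.21) and Foxj1 at 0.927 CPM (-0.04, SE 0.53).

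The genes whose library pattern lay closest were sought for the 4 members with cell cycle regulated genes, by the mean absolute difference of relative log2 CPM over the 10 libraries among 10230 protein-coding genes. For E2f1 these were Dnmt1, the maintenance DNA methyltransferase (0.0505), Pacsin2 (0.0592) and Efhd2 (0.0739), where E2f1 itself deviated by 0.183 on average from its own mean. For E2f2 they were Ccnd3 (0.0835), Fgfr3 (0.0840) and Timeless (0.0963). For E2f7 they were Neil3, a DNA glycosylase (0.0513), Cep57l1 (0.0537) and Ttk, a spindle checkpoint kinase (0.0639), and for E2f8 they were Cdca7 (0.0954), Zfp367 (0.0962) and BC055324 (0.107). When GFAP replicate 2 was left out, 3 of 3 were shared for E2f7, 2 of 3 for E2f1, and 0 of 3 for E2f2 and E2f8. By the same measure Ccnd3 (0.0764), Fgfr3 (0.0887) and Timeless (0.104) then ranked 5, 8 and 26 for E2f2, and Cdca7 (0.0959), Zfp367 (0.104) and BC055324 (0.115) ranked 7, 13 and 35 for E2f8.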

How the data were processed

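Read counts per gene (whole numbers, not normalized) and FPKM were deposited by the authors in 1 table for 10 libraries. Per the labels' protocols, RNA was amplified with SMARTer chemistry and poly(A) selected. The submitters' processing notes name HISAT2, featureCounts 1.5.0-p3 and GRCm38.p6. These sources do not give the strand setting, the handling of multiple alignments or the annotation version, and without molecular identifiers 1 molecule can give many reads. The table also held the authors' mean signal per group, log2 fold change, p-value and adjusted p-value, per the file headers. Their tool is not named, but the log2 fold changes of the 10 members match those of DESeq2 closely.

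Counts were tested with edgeR 4.0.16 (R 4.3.3; quasi-likelihood, TMM, default expression filter by group) over all genes that passed, with Benjamini-Hochberg adjustment and a threshold of 0.05. Alternatives were other scalings, filters of none or 5 CPM in 5 libraries, DESeq2 1.42.0, limma-trend (3.58.1) on log2(FPKM + 1) and log2(FPKM + 0.1), a replicate block, and libraries left out. CPM are TMM-scaled, and relative log2 CPM used a prior count of 2. Named from each list were up to 4 members past the threshold or else the 2 most abundant; 1 of these is not reported here. Genes, lists and tests were chosen with earlier results of these data known.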

Additional observations from a re-analysis of the deposited data

Results flagged for a closer look

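Of 28 groups of 5 libraries checked (each gene's FPKM and each class share in each population), 2 had a library set off from the others by more of the group's range than the 95% critical value of Dixon's test, which chance exceeds in about 1 of 20 groups. Both were GFAP replicate 2. E2f6 stood at 15.0 FPKM there, with a gap of 0.716 of the range to the next GFAP library. E2f8 stood at 4.42 FPKM, with a gap of 0.733 of the range. G1/S targets had a median relative log2 CPM of 0.78 in the same library, and their part in these values was not tested.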

How the results depend on the processing

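Of the members' log2 fold changes under alternatives, 191 kept their direction and side of the threshold, 8 changed sign and 1 passed the threshold. DESeq2 called 1 member, E2f3 (-0.55), where edgeR called 0; the cause was not tested. Leaving out 1 library gave -0.12 to 0.065 for E2f1, -0.068 to 0.033 for E2f4, -0.097 to 0.073 for E2f5 and -0.17 to 0.037 for Tfdp1, each highest without GFAP replicate 2. E2f5 was also positive without NG2 replicate 2 (0.033), and E2f1 without NG2 replicate 3 (0.022). Without both GFAP replicate 2 and NG2 replicate 5, E2f6, at -0.19 with all libraries, was at 0.036 and Tfdp1 at 0.014. For E2f6 these were the highest GFAP and the lowest NG2 library, so a rise was fixed beforehand. Of the 3 genes most like E2f2 and E2f8, 0 were shared without GFAP replicate 2 (the earlier genes then ranked between 5 and 35), an alternative chosen after seeing the data. No pairing by replicate number was detected: same-numbered libraries correlated at -0.02 to 0.08, and 1 of 5 matched its own number best. Low correlations cannot show that same-numbered libraries had separate origins, which the labels do not give. With the number as a replicate block, edgeR called 0 members and E2f3 was at -0.58 (adjusted p 0.273). Over all genes, calls (higher and lower in NG2) were 12 and 12 in the main test, 58 and 37 with no filter, 212 and 134 by DESeq2, 9 and 3 by limma, and 1 and 0 with the replicate block. Leaving out 1 library gave 3 and 0 (GFAP replicate 1, 2 or 3, or NG2 replicate 2) up to 70 and 47 (NG2 replicate 5), and leaving out both gave 109 and 154. The germline list had no tested gene under the 5 CPM filter. For E2f8, with 135 to 387 reads in a library, the 95% interval spans -0.77 to 0.07, which is the precision that this depth and spread gave.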
